A study of Mus musculus with 6 samples.

Results

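The NRF2 antioxidant response and the thioredoxin system were followed through 10 genes, of 55385 in the deposited table, in mouse Neuro2A cells after silencing of the circular RNA circCpsf6. The genes were chosen by name as parts of the pathway, with earlier results of these data known. They were Nfe2l2, Keap1, Hmox1, Nqo1, Txnrd1, Srxn1, Prdx1, Txn1, Osgin1 and G6pdx, and all 10 were found by gene symbol. Neuro2A is an established neuroblastoma line labelled as neuroblast, and nothing else in its genotype is given. Cells were transfected with an siRNA against circCpsf6 (si-circCpsf6, n = 3 libraries) or with si-NC, the siRNA it was compared with (n = 3), both at 100 nM with the same lipid reagent. RNA was sequenced in libraries titled mRNA-Seq. Each gene was given as FPKM, a count of fragments divided by transcript length and by library size. Whether the 3 libraries of a group came from separate cultures is not in the labels; if not, the p-values reflect technical spread alone.

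NRF2, the product of Nfe2l2, is a transcription factor that is made steadily and destroyed steadily. KEAP1 holds it in the cytoplasm and hands it to a ubiquitin ligase built on cullin 3; oxidants and electrophiles modify cysteines of KEAP1, NRF2 then accumulates, pairs with small MAF proteins and binds antioxidant response elements near its targets. The thioredoxin system is one branch of those targets: thioredoxin (Txn1) reduces disulfides in other proteins, thioredoxin reductase (Txnrd1) restores it with NADPH, peroxiredoxin (Prdx1) removes hydrogen peroxide at the expense of thioredoxin, and sulfiredoxin (Srxn1) rescues over-oxidised peroxiredoxin. Because NRF2 is controlled mainly as a protein, the mRNA of Nfe2l2 is not a measure of its activity, and the mRNAs of its targets are the usual readout.

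The antioxidant response element is the sequence that NRF2 binds near its targets. Letters of this element were looked for in the RefSeq promoter windows of the genes (build GRCm38.p6). These windows run from 250 bases before to 50 after an annotated start. The core searched was TGACNNNGC on both strands, where N is any base. Windows of 9 of the 10 genes (all but Hmox1) were used, 11 in all with 3 for Txnrd1. Of these, 5 windows of 5 genes held a match (45.5%), against 12.4% of all 32851 windows. The genes were chosen by name as parts of this pathway, so these shares describe that choice and were not tested. The matches read as follows, 5′ to 3′ on the strand of its gene, with the 9 matching bases in capitals:
Nfe2l2, chr2:75704885-75704913, minus strand: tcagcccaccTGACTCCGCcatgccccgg
Txnrd1, chr10:82859104-82859132, plus strand: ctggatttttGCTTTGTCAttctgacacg
Srxn1, chr2:152105542-152105570, plus strand: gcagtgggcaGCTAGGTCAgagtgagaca
Prdx1, chr4:116685456-116685484, plus strand: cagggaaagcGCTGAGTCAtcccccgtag
G6pdx, chrX:74428919-74428947, minus strand: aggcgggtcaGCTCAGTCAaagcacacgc
The match of Nfe2l2 reads in the direction of the gene, and the other 4 read on the opposite strand. The Prdx1 match overlaps TGANTCA, the element of AP-1 factors, which resembles the antioxidant response element. That of Srxn1 lies after the annotated start and the other 4 lie before it. A match describes letters and not binding. No match was found in the windows of Keap1, Nqo1, Txn1 and Osgin1 or in the other 2 of Txnrd1, which says only that these letters are not in those windows.

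In expression level, Txn1 and Prdx1 had the highest means of the set. On the FPKM scale, averaged over all 6 libraries, Txn1 stood highest at 118.5 FPKM, above 97.7% of the tested genes, and none of its 6 values overlapped those of any other member. Prdx1 (53.8 FPKM), G6pdx (48.1 FPKM) and Txnrd1 (37.7 FPKM) came next, and neighbours in that order overlapped. Hmox1 followed at 18.8 FPKM, Nfe2l2 at 10.5 FPKM, Srxn1 at 8.67 FPKM and Keap1 at 8.03 FPKM, again with overlapping neighbours. Nqo1 (1.54 FPKM) lay apart from all of these, above only 8.56% of the tested genes. Osgin1, a growth inhibitor induced by oxidative stress, was lowest at 0.578 FPKM, and its range overlapped that of Nqo1.

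**Figure D1:**
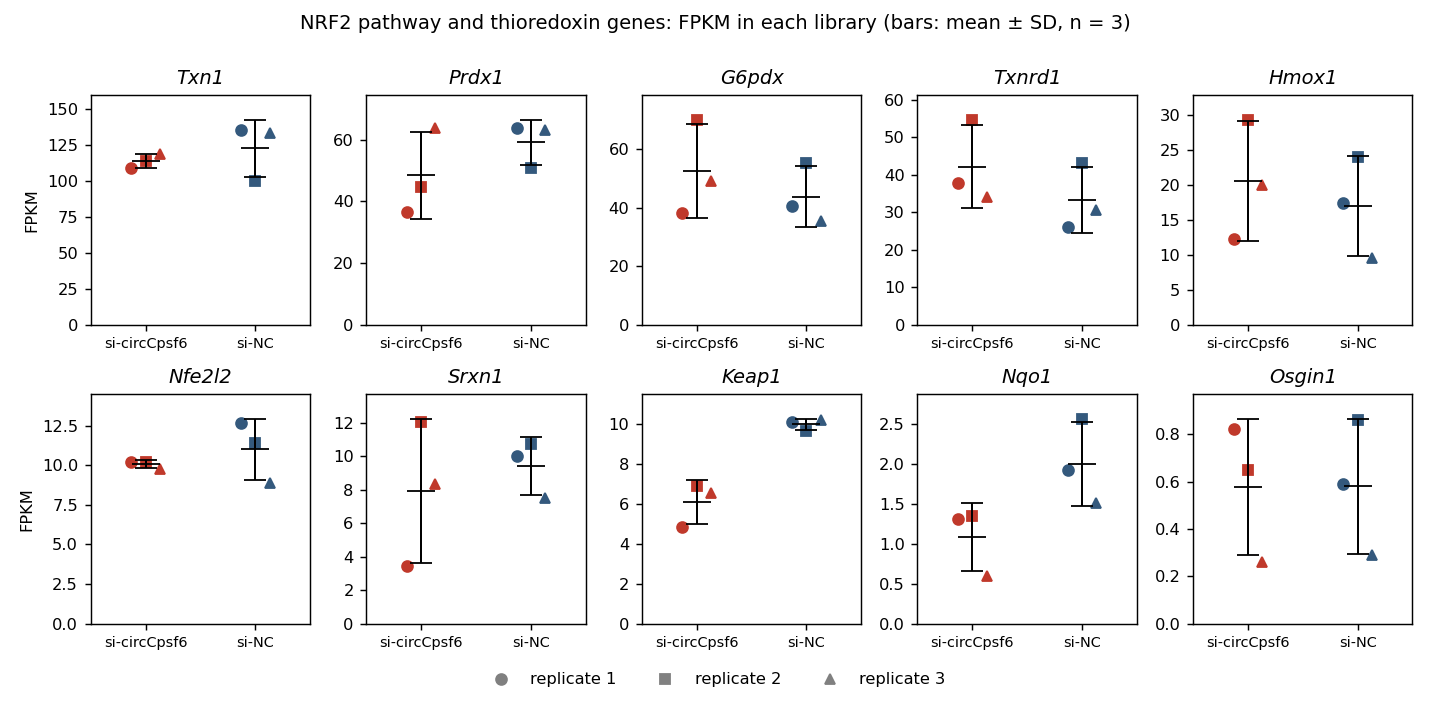
FPKM of the 10 genes in each library, ordered by mean level, with si-circCpsf6 left of si-NC; markers are single libraries and bars are mean ± SD (n = 3). Keap1 lay between 4.82 and 6.91 FPKM in si-circCpsf6, below all si-NC values, and Nqo1 was the only other gene whose groups did not overlap.

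Setting the si-circCpsf6 libraries against si-NC asked which genes differ between the siRNAs, here those of this pathway. Loss of the circle and any other effect of the siRNA against it cannot be told apart in this comparison. None of the 9 members that could be tested passed (limma on log2(FPKM + 1), Benjamini-Hochberg adjusted p under 0.05 over the 12974 genes averaging 1 FPKM or more). Of all tested genes 1.69% passed, so 0 of 9 is close to what the whole table gave. In bulk RNA, a lower value can come from fewer cells of a kind or from less RNA per cell, which cannot be told apart. Keap1 and Nqo1 had an unadjusted p under 0.05, 2 of 9 (22.2%), against 20.3% of all tested genes. Both were lower in si-circCpsf6, the direction in which 10.1% of all tested genes had such a p. The same 2 genes were the ones whose groups did not overlap (22.2%, against 26.9% of all tested genes, and 14.0% in the lower direction). In all, 6 of the 9 log2 fold changes were below 0 and 3 were above, with a median of -0.10, while 52.8% of all tested genes were below 0 and their median was -0.02. The authors' deposited table marked none of the 10 genes as significant, and 954 genes in all. Its q-value was under 0.05 for 1 of the 9 tested members, Keap1, and for 5.51% of all tested genes.

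Of the regulators, Nfe2l2 (ENSMUSG00000015839, chromosome 2, 75675513 to 75704641, GRCm38) read 10.23, 10.21 and 9.77 FPKM in si-circCpsf6, against 12.67, 11.43 and 8.88 FPKM in si-NC. The si-circCpsf6 values lay close together and inside the si-NC range. Its log2 fold change was -0.10 ± 0.15 (SE), with a 95% interval of -0.45 to 0.25 (limma adjusted p = 0.749). The interval leaves room for changes within those bounds in either direction.

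Keap1 (ENSMUSG00000003308, chromosome 9, 21229730 to 21239361), the adaptor that marks NRF2 for destruction, read 4.82, 6.91 and 6.54 FPKM in si-circCpsf6, against 10.07, 9.65 and 10.19 FPKM in si-NC. Every si-circCpsf6 library was lower than every si-NC library, and the si-NC values differed little. The means were 6.09 ± 1.11 FPKM in si-circCpsf6 and 9.97 ± 0.284 FPKM in si-NC (SD, n = 3 each). On the log2 scale Keap1 differed by -0.64 ± 0.15 (SE; 95% interval -1.0 to -0.29; unadjusted p = 0.00325), and it missed the threshold over all genes (limma adjusted p = 0.0783). In that ordering by p it was gene 537 of 12974. In the authors' deposited table its ratio was 0.61 with a q-value of 0.04. Without 1 library at a time the log2 fold change ran from -0.73 to -0.51, with limma adjusted p from 0.102 to 0.282.

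The level of Keap1 relative to Nfe2l2, the ratio of their FPKM within a library, was 0.471, 0.677 and 0.669 in si-circCpsf6, against 0.795, 0.844 and 1.148 in si-NC. The groups did not overlap, and the mean log2 ratio differed by -0.62. A two-sided exact permutation test of 3 against 3 gave p = 0.1, the smallest it can give, and 0.3 after Benjamini-Hochberg adjustment over the 3 ratios computed. Gm16754, an antisense RNA annotated across Keap1, stood at 0.16 to 0.99 FPKM over the 6 libraries. How strand was handled is not given, so reads of the pair cannot be told apart.

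Among the enzymes that handle haem and quinones, Nqo1 (chromosome 8, 107388225 to 107403206), a quinone reductase and a standard reporter of NRF2 activity, read 1.31, 1.35 and 0.6 FPKM in si-circCpsf6, against 1.92, 2.56 and 1.51 FPKM in si-NC. All si-circCpsf6 values were lower than all si-NC values, by a narrow gap. The log2 fold change was -0.53 ± 0.22 (SE; 95% interval -1.05 to -0.01; limma adjusted p = 0.236). These values are near the filter of 1 FPKM, where the added 1 understates a fold change, and the counts behind them are not known. With a pseudocount of 0.1 the log2 fold change was -0.87 (limma adjusted p = 0.256), and in the authors' deposited table it was -0.88.

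Hmox1 (chromosome 8, 75093621 to 75100589), haem oxygenase 1, which breaks down haem and is strongly induced by many stresses, read 12.3, 29.39 and 20.07 FPKM in si-circCpsf6, against 17.5, 23.98 and 9.54 FPKM in si-NC. The groups overlapped, and within each group the highest library was more than 2-fold above the lowest (2.39-fold in si-circCpsf6, 2.51-fold in si-NC). Hmox1 had a log2 fold change of 0.27 ± 0.38 (SE; 95% interval -0.62 to 1.16; limma adjusted p = 0.738). It was -0.02 without si-circCpsf6 replicate 2 and -0.07 without si-NC replicate 3, so its sign rests on single libraries.

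In the thioredoxin branch, Txnrd1 (chromosome 10, 82833951 to 82897712) read 37.75, 54.64 and 33.98 FPKM in si-circCpsf6, against 26.08, 43.17 and 30.62 FPKM in si-NC. The groups overlapped, and in each of them replicate 2 was the highest. Its log2 fold change was 0.33 ± 0.24 (SE; 95% interval -0.22 to 0.89; limma adjusted p = 0.483), and it ran from 0.13 to 0.53 without 1 library at a time. Its gene region holds Eid3, at 1.43 to 3.04 FPKM over the 6 libraries, and the noncoding Gm38560 and Gm47073, none above 1.81 FPKM.

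Txn1 (chromosome 4, 57943373 to 57956411) read 108.86, 114.25 and 118.98 FPKM in si-circCpsf6, against 135.61, 100 and 133.25 FPKM in si-NC. The si-circCpsf6 values lay inside the si-NC range. Its log2 fold change was -0.10 ± 0.16 (SE; 95% interval -0.46 to 0.27; limma adjusted p = 0.78). The processed pseudogene Txn-ps1 did not exceed 0.95 FPKM in any library.

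Prdx1 (chromosome 4, 116685544 to 116700822) read 36.58, 44.75 and 63.83 FPKM in si-circCpsf6, against 63.64, 50.75 and 63.13 FPKM in si-NC. In si-circCpsf6 replicates 1 and 2 were lower than every si-NC library, while replicate 3 was the highest of all 6. Its log2 fold change was -0.31 ± 0.21 (SE; 95% interval -0.81 to 0.19; limma adjusted p = 0.46). Leaving out si-circCpsf6 replicate 1 gave -0.14, and leaving out replicate 3 of that group gave -0.53. Its annotated pseudogene Prdx1-ps was listed at 0 in every library.

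Srxn1 (chromosome 2, 152105516 to 152111376) read 3.42, 12.02 and 8.33 FPKM in si-circCpsf6, against 9.99, 10.76 and 7.49 FPKM in si-NC. The si-circCpsf6 libraries held both the lowest and the highest value, a 3.51-fold spread, against 1.44-fold in si-NC. The log2 fold change was -0.34 ± 0.37 (SE; 95% interval -1.20 to 0.51; limma adjusted p = 0.648), and it was 0.10 without si-circCpsf6 replicate 1.

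G6pdx (chromosome X, 74409483 to 74429194), glucose-6-phosphate dehydrogenase, which makes the NADPH that thioredoxin reductase spends, read 38.23, 70.03 and 49.21 FPKM in si-circCpsf6, against 40.67, 55.26 and 35.34 FPKM in si-NC. The groups overlapped, and replicate 2 was the highest in each. G6pdx had a log2 fold change of 0.24 ± 0.25 (SE; 95% interval -0.35 to 0.82; limma adjusted p = 0.643). It was 0.01 without si-circCpsf6 replicate 2, the lowest value with 1 library left out, and 0.44 without si-circCpsf6 replicate 1, the highest. G6pdx overlaps Ikbkg, which read 2.29 to 2.99 FPKM over the 6 libraries, and its copy G6pd2 did not exceed 0.09 FPKM.

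Osgin1 (chromosome 8, 119434124 to 119446256) read 0.82, 0.65 and 0.26 FPKM in si-circCpsf6, against 0.59, 0.86 and 0.29 FPKM in si-NC. The groups overlapped and both means were near 0.58 FPKM. Its mean of under 1 FPKM kept it out of the test. Among 30181 genes tested with no filter its log2 fold change was -0.004 ± 0.20 (SE; limma adjusted p = 1).

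**Figure D2:**
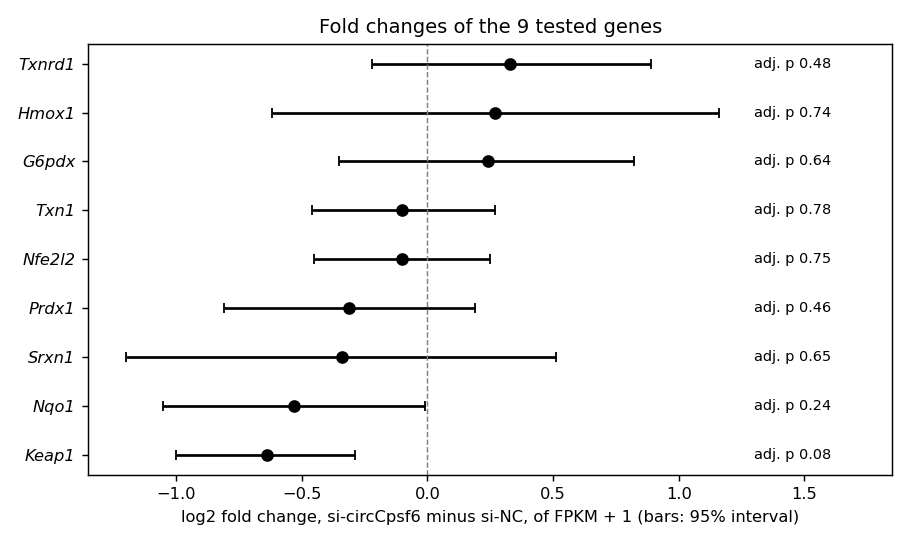
Log2 fold change of FPKM + 1 between si-circCpsf6 and si-NC for the 9 tested genes (points) with 95% limma intervals (bars) and adjusted p at the right. The intervals of Keap1 (-1.0 to -0.29) and Nqo1 (-1.05 to -0.01) lie below 0, and the other 7 span 0.

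Ratios of the paired enzymes of the thioredoxin branch also overlapped between the groups. Txnrd1 over Txn1, the reductase per thioredoxin on the FPKM scale, was 0.347, 0.478 and 0.286 in si-circCpsf6, against 0.192, 0.432 and 0.23 in si-NC (two-sided exact permutation p = 0.4, adjusted 0.6). Srxn1 over Prdx1 was 0.093, 0.269 and 0.131 in si-circCpsf6, against 0.157, 0.212 and 0.119 in si-NC (exact permutation p = 0.9, adjusted 0.9).

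Hmox1, Nqo1, Txnrd1, Srxn1 and G6pdx were each highest in replicate 2 of both groups, 5 of 9 tested members (55.6%), as were 17.4% of all tested genes. These 5 genes were grouped after their values were seen, so this is a description and was not tested. In deviations from the group mean of log2(FPKM + 1) over the 6 libraries, Pearson r over all 36 pairs of tested members ran from -0.88 (Nqo1 with Prdx1) to 0.95 (Hmox1 with G6pdx), with a median of 0.33. The points share their libraries, so library-wide differences enter every pair. Nfe2l2 deviated by 0.02, 0.02 and -0.04 in si-circCpsf6 replicates 1, 2 and 3, and by 0.20, 0.06 and -0.27 in those of si-NC. Whether replicate 2 of both groups came from one culture or day is not given in the labels.

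**Figure D3:**
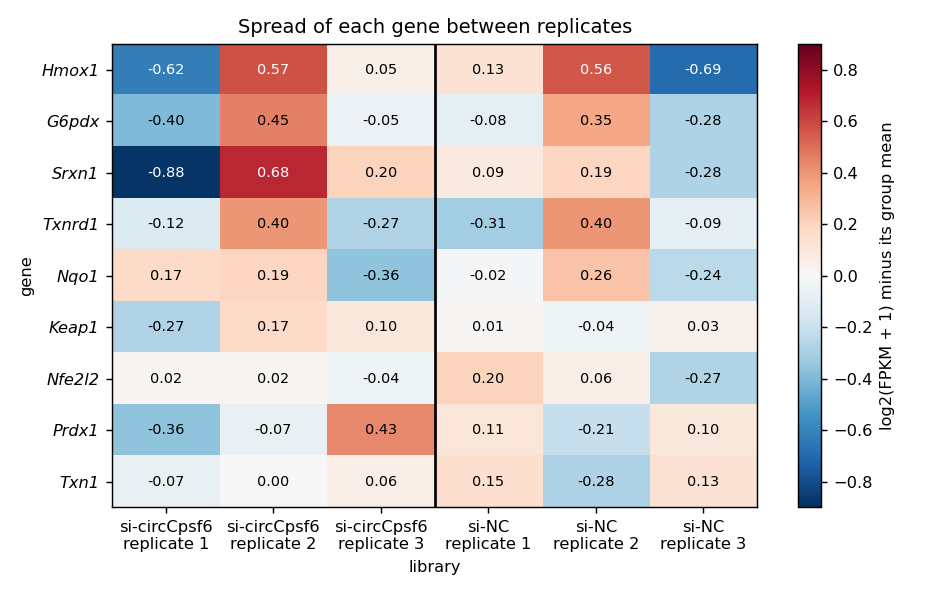
Deviation of log2(FPKM + 1) from its group mean for the 9 tested genes (rows) in each library (columns), si-circCpsf6 left of the line and si-NC right of it. Srxn1 ran from -0.88 to 0.68 within si-circCpsf6, and Hmox1, G6pdx, Srxn1, Txnrd1 and Nqo1 were above their mean in replicate 2 of both groups.

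Likeness over the 6 libraries was described for Nfe2l2 and for Keap1, the member with the smallest p. The genes whose log2(FPKM + 1) was closest to Nfe2l2 included Ap2s1 (Pearson r = 0.98) and Srcap (0.966), and 25 tested genes were above 0.9. For Keap1 they were Gm16589 (r = 0.999), Samd10 (0.997) and Gm5898 (0.996), and 651 were above 0.9. These are 6 points from the same libraries, and a difference between the groups, as in Keap1, enters r. Whether genes with a high r share any control was not tested.

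A heptamer, GCAGAAT, taken from earlier work on these data, was looked for in 3′ untranslated regions (UTRs), using the longest annotated 3′ UTR of each member. It was in 1 of 10, Nfe2l2, and in 10.2% of 10630 tested genes with a 3′ UTR of at least 50 bases. The site is shown with the heptamer in capitals, since it belongs to the central regulator of the set:
Nfe2l2, chr2:75675844-75675872, minus strand, GRCm38: taagtaactatGCAGAATtatagccaaag
The log2 fold change of Nfe2l2 was -0.10. Whether the heptamer has a part in the value of any member was not tested.

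Genes around the pathway were read from 6 further lists, 83 tested genes in all. The test was passed by 2 of these 83 (Lancl1 and Gsr, both lower), and by 1.69% of all tested genes. Of the 83, 27.7% had an unadjusted p under 0.05 (20.3% of all tested genes), and their median log2 fold change was 0.01. None of 16 tested partners and regulators of NRF2 passed, and 10 of the 16 were above 0. Of the 16, 3 (18.8%) had an unadjusted p under 0.05, against 20.3% of all tested genes. The q-value in the authors' deposited table was under 0.05 for 2, and for 5.51% of all tested genes. Maff, a small MAF protein that pairs with NRF2 and with its competitor BACH1, read 23.92, 14.86 and 13.54 FPKM in si-circCpsf6, against 10.16, 5 and 8.16 FPKM in si-NC. All si-circCpsf6 values were higher, with a log2 fold change of 1.08 ± 0.28 (SE; limma adjusted p = 0.0974). Bach2, a repressor of the same family as BACH1, averaged 4.42 ± 0.55 FPKM in si-circCpsf6 and 2.84 ± 0.582 FPKM in si-NC (SD, n = 3 each; limma adjusted p = 0.153).

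Of 20 other tested thioredoxin and peroxiredoxin genes, 10 were above 0 and 10 below. An unadjusted p under 0.05 was found for 6 (30.0%), against 20.3% of all tested genes. The authors' deposited q-value was under 0.05 for 3, and for 5.51% of all tested genes. None of the 20 passed the test. Txnrd3, a thioredoxin reductase with a glutaredoxin domain, came nearest: it read 10.84, 14.19 and 14.46 FPKM in si-circCpsf6, against 8.18, 6.74 and 7.14 FPKM in si-NC. Its groups did not overlap, and its log2 fold change was 0.76 ± 0.15 (SE; limma adjusted p = 0.0573), against 0.33 for Txnrd1. Prdx4, the peroxiredoxin of the endoplasmic reticulum, read 61.25, 58.65 and 74.09 FPKM in si-circCpsf6, against 45.72, 35.14 and 39.86 FPKM in si-NC (log2 fold change 0.67 ± 0.15, SE; limma adjusted p = 0.0754). The values of Prdx4 were thus all higher in si-circCpsf6, while those of Prdx1 overlapped; the difference between the 2 genes was not tested.

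None of 12 tested enzymes that regenerate NADPH passed, with 5 above 0 and 7 below. An unadjusted p under 0.05 was found for 5 (41.7%), against 20.3% of all tested genes. The authors' deposited q-value was under 0.05 for 2, and for 5.51% of all tested genes. Mthfd1, a folate enzyme, averaged 11.6 ± 2.53 FPKM in si-circCpsf6 and 20.7 ± 3.67 FPKM in si-NC (SD, n = 3 each; limma adjusted p = 0.0874). Taldo1, transaldolase of the pentose phosphate pathway, averaged 32.6 ± 1.73 FPKM in si-circCpsf6 and 19.5 ± 5.87 FPKM in si-NC (SD, n = 3 each; limma adjusted p = 0.112). Both had groups that did not overlap, in opposite directions. The groups did not overlap for 5 of the 12 in all (41.7%), against 26.9% of all tested genes.

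None of 24 tested NRF2 targets of haem, iron and detoxification passed, and 12 lay on each side of 0. Of the 24, 4 (16.7%) had an unadjusted p under 0.05, against 20.3% of all tested genes. The authors' deposited q-value was under 0.05 for 0 of them, and for 5.51% of all tested genes. Trim16, a ubiquitin ligase linked to the NRF2 response, averaged 4.99 ± 0.406 FPKM in si-circCpsf6 and 3.06 ± 0.489 FPKM in si-NC, and Cbr3, a carbonyl reductase, 6.96 ± 0.761 FPKM in si-circCpsf6 and 4.59 ± 0.644 FPKM in si-NC (SD, n = 3 each; limma adjusted p = 0.0961 and 0.12). Of 5 tested superoxide and peroxide enzymes none passed and 4 were above 0. An unadjusted p under 0.05 was found for 2 (40.0%), against 20.3% of all tested genes. The authors' deposited q-value was under 0.05 for 0 of the 5, and for 5.51% of all tested genes. Sod2, the mitochondrial superoxide dismutase, read 15.32, 16.05 and 16.07 FPKM in si-circCpsf6, against 11.71, 11.16 and 11.46 FPKM in si-NC. Its groups were tight and apart, and its log2 fold change was 0.43 ± 0.11 (SE; limma adjusted p = 0.094). Gpx4, which reduces lipid peroxides, averaged 114 ± 14.8 FPKM in si-circCpsf6 and 88.7 ± 4.96 FPKM in si-NC (SD, n = 3 each; limma adjusted p = 0.229), and it has 2 annotated pseudogenes with which it could share reads.

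Both genes that passed were on the list of glutathione synthesis and recycling. That list was chosen with earlier results of these data known, so their place on it is not a result about the branch. Gsr, glutathione reductase and itself a known NRF2 target, read 6.93, 11.99 and 10.77 FPKM in si-circCpsf6, against 31.53, 36.95 and 31.03 FPKM in si-NC (limma adjusted p = 0.0227). The call of Gsr was lost with the replicate block (limma adjusted p = 0.0503), with no filter (limma adjusted p = 0.0802) and without 4 of the 6 libraries taken out singly, si-circCpsf6 replicate 3 and each of si-NC (limma adjusted p = 0.0622, 0.0647, 0.0639 and 0.0871). The glutathione-binding gene Lancl1 was also lower (limma adjusted p = 0.00607); its call held with the replicate block (limma adjusted p = 0.0436) and was lost without si-NC replicate 3 (limma adjusted p = 0.0517). The other 4 tested genes of that list did not pass.

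**Figure D4:**
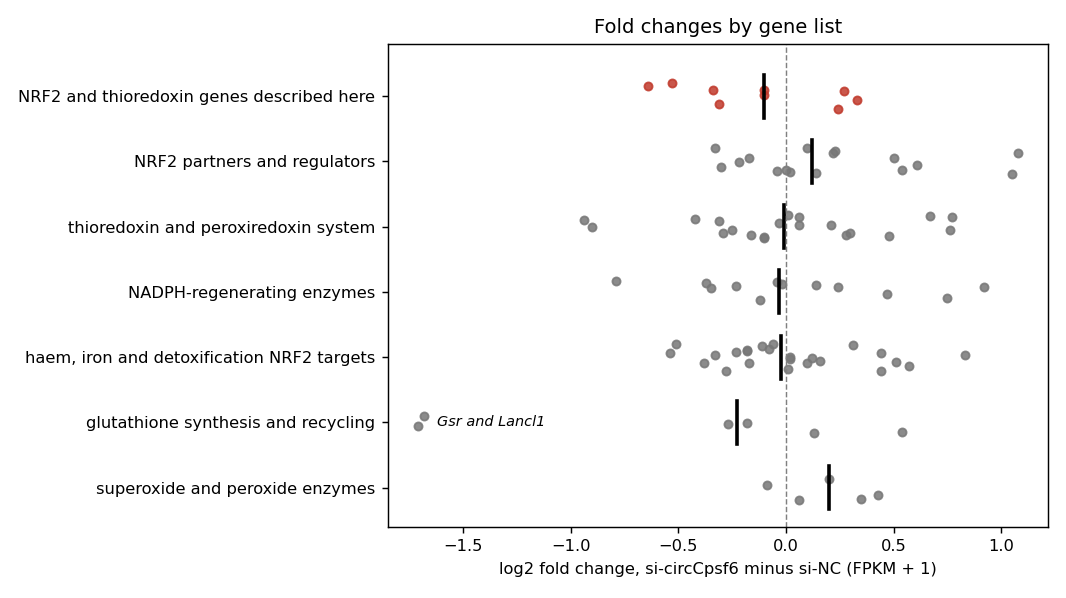
Log2 fold changes of FPKM + 1 between si-circCpsf6 and si-NC for the tested genes described here (top row) and for 6 related lists; each point is a gene, vertical bars are list medians and the vertical offset is for display only. Points lie on both sides of 0 in every row, and only Gsr and Lancl1 passed the test.

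Across libraries, 12671 to 13080 genes reached 1 FPKM. Cpsf6, the host gene of the circle, read 10.65, 15.06 and 14.5 FPKM in si-circCpsf6, against 14.09, 14.5 and 15.2 FPKM in si-NC; a value per gene does not separate circle from linear mRNA, so the knockdown itself is not measured by it. Of 16 markers of neuroblastoma and sympathetic lineage, 14 were at 1 FPKM or more in every library. Their summed level was 1110 to 1579 FPKM in si-circCpsf6 and 2184 to 3297 FPKM in si-NC, with 6 of 15 tested markers above 0 and 9 below. Chgb, a granin of secretory vesicles, made up most of that difference, at 463.2, 199.17 and 616.97 FPKM in si-circCpsf6, against 2073.04, 1073.28 and 1749.2 FPKM in si-NC. Of the 15, 1 passed (Chga, lower; limma adjusted p = 0.0335), and it did not with the replicate block (limma adjusted p = 0.0615) or without any 1 of the 6 libraries (limma adjusted p from 0.0516 to 0.16). Summed macrophage and microglia markers did not exceed 1.95 FPKM in si-circCpsf6 and 2.01 FPKM in si-NC. Summed fibroblast markers were at 5.53 to 11.6 FPKM in si-circCpsf6 and 2.61 to 10.6 FPKM in si-NC, and Pdgfrb among them passed, higher in si-circCpsf6 (limma adjusted p = 0.0455), but not with the replicate block (limma adjusted p = 0.0746) or without any 1 of the 6 libraries (limma adjusted p from 0.0858 to 0.133). Endothelial markers summed to 1.82 to 4.29 FPKM in si-circCpsf6 and 2.97 to 3.6 FPKM in si-NC, and astrocyte and oligodendrocyte markers to 1.6 to 4.82 FPKM in si-circCpsf6 and 3.67 to 4.53 FPKM in si-NC. Whether these markers have a part in the values of the pathway was not tested.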

How the data were processed

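RNA from Neuro2A cells was sequenced in 6 libraries, 3 of each group, and the authors deposited 1 table of FPKM per gene, rounded to 2 decimals, per the file headers. It also gives, as deposited, a fold change (si-circCpsf6 over si-NC, a ratio), the log2 of that ratio, a p-value and a q-value. The submitters' processing notes list Bowtie 0.12.2 and 2 genome builds, mm8 and mm9, with no role given. No source used here gives the program behind FPKM, the authors' test or how strand was handled. Positions and transcripts came from GENCODE M21 (GRCm38), in which 55144 gene identifiers were found. At most 30.6% of low FPKM values were whole multiples of 1 fragment's worth within 0.1, so counts and depth were not recovered and no count test was run.

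Groups and replicate numbers came from titles. The 12974 genes averaging 1 FPKM or more were tested on log2(FPKM + 1) by limma 3.58.1 (R 4.3.3). The model held group alone and the prior variance an intensity trend, with Benjamini-Hochberg adjustment at 0.05. A check on simulated normal noise used changes larger than that of any member. It does not show how often changes as small as those of the members would be found. Fold changes on this scale understate changes of low genes. Members and lists were chosen with earlier results of these data known. Every member is named; of each other list, up to 4 genes past the test or else the 2 with the smallest p, and for Nfe2l2 and the member with the smallest p the 3 tested genes most alike over the 6 libraries. Any gene of this rule that is not named is not reported here. Other settings tried were quantile normalization, median centring, no intensity trend, a pseudocount of 0.1, filters at 5 FPKM or none, a replicate block, the authors' q-values and each library left out. Python 3.11.15, pandas 2.3.3, scipy 1.17.1 and matplotlib 3.10.9 were used for the rest.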

Additional observations from a re-analysis of the deposited data

How the results depend on the processing

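No member was called in any limma fit, and 1 was (Keap1) by the authors' q-values of the deposited table, where its log2 fold change was -0.71. Of 125 member values under the alternatives, 121 kept their direction and side of the threshold. The sign turned for Srxn1 without si-circCpsf6 replicate 1 (0.10) and for Hmox1 without si-circCpsf6 replicate 2 (-0.02) and without si-NC replicate 3 (-0.07); without 1 library they ran from -0.68 to 0.10 and from -0.07 to 0.58, and the cause was not tested. Of all tested genes 219 were called, against 13 with no filter, 11 with the replicate block and 715 by the authors' q-values. Leaving out 1 library gave 87, 22 and 20 calls without si-circCpsf6 replicates 1, 2 and 3, and 13, 32 and 3 without si-NC replicates 1, 2 and 3; fewer samples enter those fits. Genes called in the 6 related lists numbered 2, against 1 with no filter, 1 with the replicate block, 9 by the authors' q-values and 0 to 2 without 1 library. Same-numbered libraries correlated by 0.103, 0.129 and 0.084 in their deviations from group means. Each library, of si-circCpsf6 and of si-NC, correlated best with the library of its own number in the other group, a hint of pairing from the data. For si-circCpsf6 replicate 3 the margin was narrow, 0.084 against 0.078 with si-NC replicate 1. Not every value passed 0.1, and the labels do not say what the number stands for. The main fit therefore did not pair by it, and whether the libraries are paired was not settled. With the replicate block, unadjusted p was 0.00654 for Keap1, 0.0218 for Nqo1 and 0.0524 for Txnrd1, and no member was called. Depth is unknown, so counting error at low FPKM, as in Nqo1 and Osgin1, cannot be given.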

Other observations

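A few neighbours of the pathway, chosen after their values were seen, differed widely between libraries. Nfe2l1 is the NRF2 relative that induces proteasome genes. It read 64.3, 18.13 and 18.13 FPKM in si-circCpsf6, against 13.26, 15.29 and 10.61 FPKM in si-NC (limma adjusted p = 0.25). Its groups did not overlap, and si-circCpsf6 replicate 1 stood far above the rest. Sqstm1, which encodes p62, a cargo receptor of autophagy that binds KEAP1, read 206.14, 252.19 and 141.15 FPKM in si-circCpsf6, against 113.93, 173.12 and 104.11 FPKM in si-NC, with the highest value of each group in replicate 2 (limma adjusted p = 0.259). Txnip, the thioredoxin-binding arrestin, read 20.26, 6.27 and 14.12 FPKM in si-circCpsf6, against 24.53, 34.25 and 15.74 FPKM in si-NC (limma adjusted p = 0.28). Msrb2, a mitochondrial methionine sulfoxide reductase, read 3.7, 6.61 and 4.41 FPKM in si-circCpsf6, against 10.66, 7.16 and 13.22 FPKM in si-NC, and its groups did not overlap (limma adjusted p = 0.105).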
